A study of Mus musculus with 18 samples.

Results

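The comparison described here set whole brain RNA of DBA/2J mice against whole brain RNA of C57BL/6J mice, 2 inbred laboratory strains. It rests on 6 of the 18 two-colour oligonucleotide arrays of the series, those titled as brain replicates, and on all 20218 features measured on them, 15095 of which are named genes. On every brain array a pool of RNA from 10 DBA/2J mice, labelled with Alexa Fluor 647, was hybridised together with a pool from 10 C57BL/6J mice, labelled with Alexa Fluor 555. The kidney arrays (6, pools of 10 mice per strain) and the liver arrays (6, pools of 9 mice per strain) carried the same strains and dyes and served as a reference for what was shared between tissues. The labels give no age, sex, treatment or genetic modification for any group. Within a tissue the same pools went onto every array, so the p-values measure the spread between hybridisations and not that between mice. Dyes were not swapped, so a strain difference and a dye effect of a spot cannot be told apart in brain alone. Values are log2 ratios of DBA/2J over C57BL/6J after normalisation within each array, given as mean ± SD of the 6 arrays, and positive values stand for a higher level in DBA/2J. That direction is likely rather than stated, since it rests on the dye order in the labels.

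Whole brain RNA mixes the transcripts of neurons with those of glia and of the vessel wall. Neurons signal through small transmitters and through neuropeptides, which are cut from larger precursors in dense-core vesicles and often amidated at the C terminus before release. Astrocytes clear glutamate and ammonia from the tissue, oligodendrocytes wrap axons in myelin, and microglia are the resident macrophages. Endothelial cells seal the blood-brain barrier, with pericytes and smooth muscle around them and fibroblasts in the meninges. In such bulk RNA, fewer cells of a type and less RNA per cell cannot be told apart.

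The arrays carried brain RNA as labelled. Of 24 measured genes of a pan-neuronal list, 20 were over 2-fold brighter in brain than in kidney and in liver, against 23% of all features, and of 23 genes of a kidney and liver list 0 were. Correlations of the ratios between pairs of brain arrays, across features, ran from 0.174 to 0.608, with a mean of 0.382, and array 1 was least like the others (mean 0.247). The median SD over the 6 arrays was 0.199. Spots that carry the same gene name agreed poorly: for 902 genes with 2 spots the brain means of the spots correlated at 0.048 across genes. A ratio from a single spot may therefore not stand for its gene, and of the 15095 named genes only 1047 had more than 1 spot.

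In brain, 2772 of 20218 features (13.7%) passed an adjusted p of 0.05 in limma, 1501 higher in DBA/2J (7.42%) and 1271 lower (6.29%). With arrays centred on their medians and no loess, the lower calls were the more numerous, 1885 against 1660 higher. Of the 2772 features, 344 (1.7% of all features) also differed at least 1.5-fold, 212 higher and 132 lower, and 39 differed at least 2-fold. The sign was the same on all 6 arrays for 2177 of the 2772. The share past the threshold was 15.1%, 12.4%, 12.5% and 14.8% in 4 equal bins of features from dimmest to brightest. Leaving out array 2, 4, 5 or 6 lowered the 2772 calls to 1742, 1334, 1611 and 1609.

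The largest ratio above 0 among named genes past the threshold with 1 sign on every array, and the largest of the neuropeptide list, belonged to Pam, the gene of peptidylglycine alpha-amidating monooxygenase, which amidates peptide precursors. Its log2 ratios on arrays 1 to 6 were 1.54, 2.04, 3.13, 2.34, 2.61 and 1.89. All arrays lay far above 0, with array 1 lowest and array 3 highest, and the mean was 2.26 ± 0.56 (4.78-fold, adjusted p = 1.07e-05). Pam was also above 0 in kidney (1.45 ± 0.32) and in liver (0.57 ± 0.25), and the brain ratio exceeded the mean of those tissues by 1.25 (SE 0.17, adjusted p = 2.71e-05).

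Scg5, which encodes the chaperone 7B2 of the prohormone convertase PC2, read -0.09, 1.20, 1.47, 1.33, 1.42 and 1.75 on arrays 1 to 6. Array 1 stood at about 0 while the other 5 lay close together, and the mean was 1.18 ± 0.65 (2.26-fold, adjusted p = 0.00220). Scg5 was also above 0 in kidney (0.81 ± 0.41) and liver (0.36 ± 0.24). Its difference of 0.60 from those tissues (SE 0.19, adjusted p = 0.0372) lost the call under 7 alternatives. Vip, the gene of vasoactive intestinal peptide, a transmitter of cortical interneurons and of the suprachiasmatic nucleus, read 1.61, 1.71, 0.40, 0.56, 0.42 and 1.32. The arrays fell apart into arrays 1, 2 and 6 above 1.3 and arrays 3, 4 and 5 below 0.6, all above 0, with a mean of 1.00 ± 0.61 (2.01-fold, adjusted p = 0.00397). Unlike Pam and Scg5, Vip stood near 0 in kidney (-0.07 ± 0.24) and liver (-0.10 ± 0.19), and the difference of 1.09 passed (SE 0.17, adjusted p = 0.000131).

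Pam, Scg5 and Vip were the neuropeptide list's members past both the threshold and 1.5-fold. Because they moved in the same direction, the 250 bases before the annotated start of each (RefSeq, GRCm38.p6) are shown, with each TGACG, the core of the cAMP response element, in capitals where it occurs on either strand. They lie at chr10:5638968-5639217 (plus strand) for Vip, chr2:113829092-113829341 (minus strand) for Scg5 and chr1:98095647-98095896 (minus strand) for Pam.
Vip: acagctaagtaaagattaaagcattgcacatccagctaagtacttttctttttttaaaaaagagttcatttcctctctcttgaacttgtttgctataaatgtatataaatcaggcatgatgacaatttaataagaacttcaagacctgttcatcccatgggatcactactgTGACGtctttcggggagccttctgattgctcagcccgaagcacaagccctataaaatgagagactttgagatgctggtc
Scg5: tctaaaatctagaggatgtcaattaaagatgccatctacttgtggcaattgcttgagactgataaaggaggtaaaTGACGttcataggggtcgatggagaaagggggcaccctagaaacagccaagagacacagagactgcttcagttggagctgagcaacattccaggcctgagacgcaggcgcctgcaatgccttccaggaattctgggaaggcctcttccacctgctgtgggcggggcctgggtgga
Pam: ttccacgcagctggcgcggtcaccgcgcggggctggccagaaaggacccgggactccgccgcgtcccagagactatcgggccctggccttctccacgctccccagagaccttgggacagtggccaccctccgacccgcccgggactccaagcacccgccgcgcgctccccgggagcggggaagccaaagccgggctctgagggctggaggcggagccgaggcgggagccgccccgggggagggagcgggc
The letters occurred once in Vip, at -79, and once in Scg5, at -175, and these letters were not in the Pam window. They occur on either strand in 17.8% of the 32851 RefSeq promoter windows of that length, so a match here is a description and not a site.

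Of 45 measured genes of neuropeptides and their processing, 8 were higher in DBA/2J, 1 was lower and 36 were not past the threshold (20% called, against 13.7% of all features). The list's median was 0.06, against 0.00 over all features. Besides Pam, Scg5 and Vip the higher genes were Npff (0.46 ± 0.33), Avp, the gene of vasopressin (0.40 ± 0.26), Pmch, the gene of melanin-concentrating hormone (0.36 ± 0.22), Adcyap1, the gene of PACAP (0.29 ± 0.13), and Npy, the gene of neuropeptide Y (0.29 ± 0.22, adjusted p = 0.0457). The call of each of these 5 ended under at least 1 alternative, among them leaving out array 4 or 6 for Npff and array 5 for Avp. Nts, the gene of neurotensin, was the lower one at -0.55 ± 0.57, with array 2 at -1.30 and array 4 at 0.12. Its call ended under 8 alternatives, among them leaving out array 2, 3, 5 or 6 and centring arrays on their medians. The Nts spot was brighter in kidney (log2 intensity 11.5) and liver (11.0) than in brain (10.3). The count of higher genes was 5 without array 4 and 4 without array 5 or 6, and it was 13 with arrays centred on their medians in place of loess.

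The list also held 7 other measured genes of precursor processing and granins, which were chosen for mention after their values were seen. Pcsk1, a prohormone convertase gene, averaged 0.17 ± 0.24 (adjusted p = 0.225), Pcsk1n, the gene of an inhibitor of that convertase, 0.10 ± 0.31 (adjusted p = 0.552) and Cpe, the carboxypeptidase gene, -0.01 ± 0.18 (adjusted p = 0.931). The granin genes read -0.12 ± 0.11 for Chga, -0.10 ± 0.18 for Scg2 and -0.04 ± 0.12 for Scg3. Chgb averaged 0.17 ± 0.50, with 5 arrays between -0.12 and 0.03 and array 6 at 1.17. None of these 7 passed the threshold. Against the mean of kidney and liver the brain ratio was higher for Scg3 (difference 0.46, adjusted p = 0.00207) and for Pcsk1 (0.37, adjusted p = 0.0455). The Pcsk1 call ended under 10 alternatives, and its ratio was -0.60 in kidney and 0.19 in liver.

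**Figure D1:**
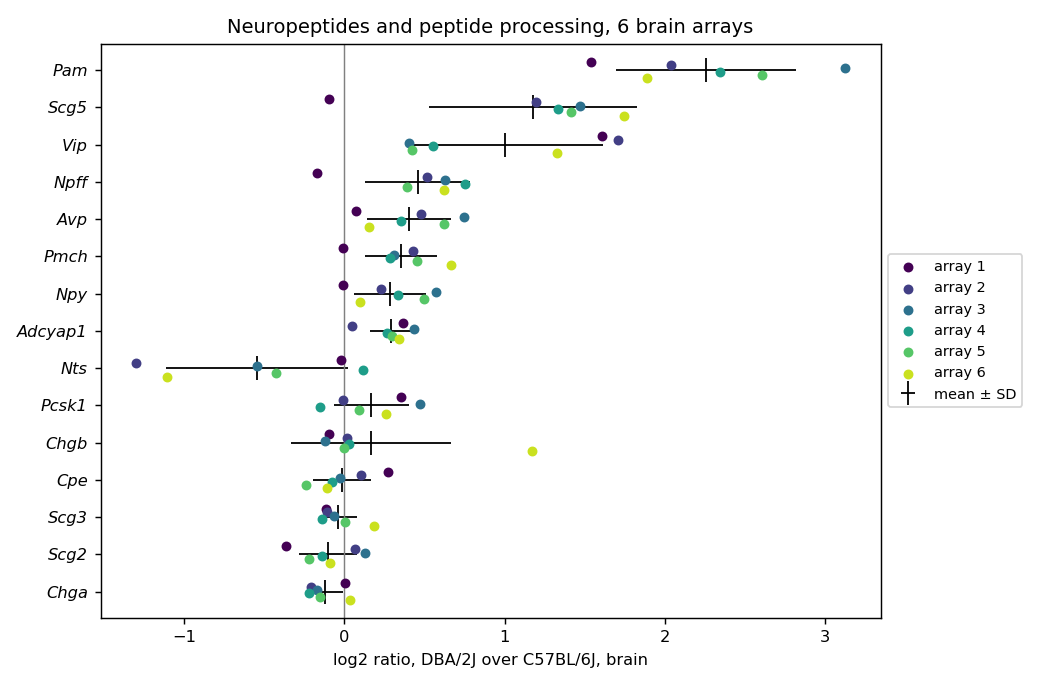
Log2 ratio of DBA/2J over C57BL/6J (horizontal axis) for 15 genes of neuropeptides and peptide processing. Coloured points are the 6 brain arrays, and the black tick and line are mean ± SD. Pam, Scg5 and Vip stand apart at means of 2.26, 1.18 and 1.00, while Cpe, Scg3, Scg2 and Chga scatter around 0, and array 1 of Scg5 and array 6 of Chgb lie away from the other points of their rows.

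On the receptor side, 1 of 52 neuropeptide receptor genes was higher, 8 were lower and 43 were not past the threshold (17.3% called, median -0.09). Cckbr, a cholecystokinin receptor gene, was the higher one (0.32 ± 0.22), and its call ended with arrays centred on their medians and without array 1, 2 or 4. Vipr1, a receptor gene of vasoactive intestinal peptide, was lower on every array, between -0.48 and -0.23, with a mean of -0.32 ± 0.09 (adjusted p = 0.0121), but lost the call with 1 loess curve per array. Its spot was dim, at percentile 6.92 of brain intensity. The count of lower receptor genes fell to 3 without array 2, 2 without array 3, 3 without array 4, 2 without array 5 and 4 without array 6.

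Outside the peptides, the lowest ratio belonged to Bid, a pro-apoptotic gene of the BCL-2 family, with -2.34, -2.80, -1.97, -3.05, -2.64 and -3.42 on arrays 1 to 6. Every array lay below -1.9, and the mean was -2.70 ± 0.51 (6.51-fold, adjusted p = 1.25e-06). Kidney (-2.71 ± 0.60) and liver (-1.70 ± 0.73) were low too, and the brain ratio did not pass as different from their mean (-0.50, SE 0.25, adjusted p = 0.187). Mmp9, which encodes a matrix metalloproteinase, read -1.72, -1.62, -1.38, -1.72, -1.59 and -1.30. The 6 arrays lay within a narrow band, the mean was -1.55 ± 0.18 (2.94-fold, adjusted p = 1.25e-06), and kidney (-1.81 ± 0.19) and liver (-1.17 ± 0.26) had low ratios as well, the difference being -0.06 (SE 0.10, adjusted p = 0.740). Ftl1, the ferritin light chain gene, averaged -1.30 ± 0.63 in brain, -2.26 ± 0.59 in kidney and -2.11 ± 1.29 in liver.

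Above 0, Cap1 (1.10 ± 0.46), which encodes an actin regulator, Meis1 (1.06 ± 0.29), a homeobox gene, Fam32a (1.00 ± 0.27) and Erp29 (0.99 ± 0.18), which encodes an endoplasmic reticulum protein, were likewise above 0 in kidney and liver, with means between 0.37 and 1.45. The Erp29 spot was among the dimmest, at percentile 1.41 of brain intensity. None of Cap1, Meis1, Fam32a and Erp29 passed as different from the mean of kidney and liver, with differences of 0.41, 0.15, 0.26 and 0.15. Such ratios were common: kidney and liver means both had the sign of brain for 1599 of the 2772 features past the threshold, and for 42.5% of all features.

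**Figure D2:**
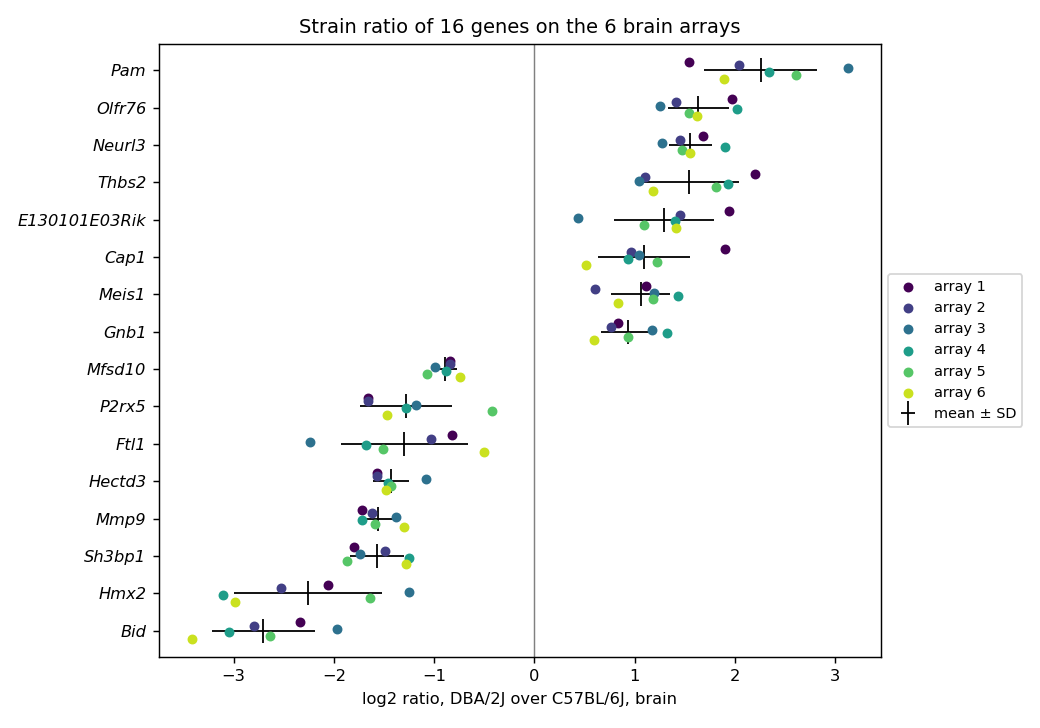
Log2 ratio of DBA/2J over C57BL/6J (horizontal axis) of 16 genes with large brain ratios. Coloured points are the 6 brain arrays, and the black tick and line are mean ± SD. All points of a gene lie on the same side of 0, which the rule for naming large ratios asked for. The spread differs between genes, from an SD of 0.12 for Mfsd10 to 0.74 for Hmx2.

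A second comparison asked which brain ratios differed from the mean of kidney and liver, a difference from which a constant dye effect of a spot drops out. Brain was not compared with kidney alone or liver alone, so opposite departures from those tissues can cancel. It passed for 2948 of 20218 features (14.6%), 1597 with a higher ratio in brain (7.9%) and 1351 with a lower one (6.68%), a split that turned to 725 and 921 when arrays were centred on their medians without loess. Of the 2772 features past the threshold in brain, 1045 differed from the other tissues, and of the 344 at 1.5-fold, 238 did.

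Among named genes past the thresholds of both comparisons, the largest negative difference belonged to Hmx2, a homeobox gene of the hypothalamus and inner ear, whose brain arrays read -2.06, -2.52, -1.25, -3.10, -1.63 and -2.98. All 6 lay well below 0 but over a wide range, with a mean of -2.26 ± 0.74 (4.78-fold, adjusted p = 8.74e-05), against -0.25 ± 0.21 in kidney and -0.01 ± 0.11 in liver (difference -2.13, SE 0.19, adjusted p = 4.54e-08). Sh3bp1 read -1.80, -1.49, -1.74, -1.25, -1.86 and -1.28. All brain arrays lay below the means of kidney (0.49 ± 0.27) and liver (0.08 ± 0.14), and the difference was -1.85 (SE 0.11, adjusted p = 9.07e-11).

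Hectd3, a ubiquitin ligase gene, read -1.56, -1.57, -1.08, -1.46, -1.43 and -1.48, with array 3 somewhat higher than the other 5. Its mean of -1.43 ± 0.18 compared with -0.15 ± 0.29 in kidney and -0.25 ± 0.18 in liver (difference -1.23, SE 0.11, adjusted p = 4.54e-08). P2rx5, which encodes an ATP-gated ion channel, read -1.66, -1.66, -1.18, -1.28, -0.43 and -1.47. Array 5 was nearest to 0, and the mean of -1.28 ± 0.46 compared with 0.28 ± 0.17 in kidney and -0.14 ± 0.16 in liver (difference -1.35, SE 0.13, adjusted p = 2.94e-07). Mfsd10, a membrane transporter gene, was lower in brain on every array, between -1.07 and -0.74 (difference -1.07, SE 0.09, adjusted p = 3.93e-08).

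Among the same genes, Olfr76 had the largest positive difference. This olfactory receptor gene read 1.97, 1.41, 1.25, 2.02, 1.54 and 1.62 in brain, at percentile 5.25 of brain intensity, so the spot was among the dimmest. Its mean of 1.64 ± 0.31 compared with -0.06 ± 0.19 in kidney and -0.07 ± 0.29 in liver (difference 1.70, SE 0.12, adjusted p = 2.29e-09). Thbs2, which encodes the matricellular protein thrombospondin 2, read 2.20, 1.10, 1.05, 1.93, 1.81 and 1.19, all above 1, while kidney and liver averaged -0.02 ± 0.21 and -0.02 ± 0.23. The mean was 1.55 ± 0.50 and the difference 1.56 (SE 0.15, adjusted p = 1.29e-07).

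Neurl3, a ubiquitin ligase gene, averaged 1.56 ± 0.22 in brain, 0.48 ± 0.32 in kidney and 0.15 ± 0.15 in liver (difference 1.24, SE 0.11, adjusted p = 7.86e-08). The RIKEN transcript E130101E03Rik averaged 1.29 ± 0.50, with array 3 lowest at 0.44 (difference 1.32, SE 0.14, adjusted p = 1.29e-06). Gnb1, which encodes a beta subunit of heterotrimeric G proteins, averaged 0.94 ± 0.27 against 0.11 ± 0.22 and -0.03 ± 0.17 (difference 0.90, SE 0.11, adjusted p = 6.90e-06). Chd9, a chromatin remodeller gene, followed at 0.86 ± 0.37 (difference 0.89, SE 0.13).

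For Dpp6, an auxiliary subunit of potassium channels, the difference was large because the ratio was lower elsewhere. Brain averaged -0.33 ± 0.23 (adjusted p = 0.0284, lost without array 1, 2, 3 or 6 and with arrays centred on their medians), kidney -2.43 ± 0.34 and liver -1.09 ± 0.35 (difference 1.43, SE 0.14, adjusted p = 1.80e-07). Apoc1, an apolipoprotein gene, averaged -1.64 ± 1.27, with array 1 at -4.12 and the other 5 between -1.63 and -0.78. Its call in brain ended under robust moderation, and its difference of -0.99 (adjusted p = 0.0399) ended without array 1, 3 or 4.

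**Figure D3:**
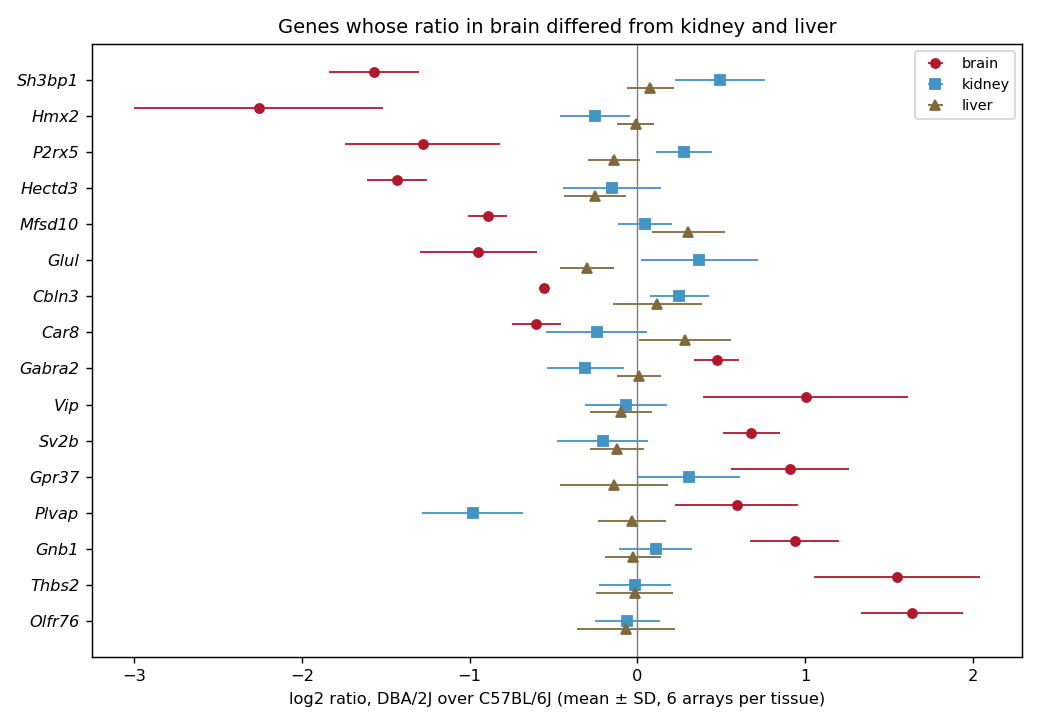
Mean log2 ratio of DBA/2J over C57BL/6J (horizontal axis) ± SD of 6 arrays in brain (circles), kidney (squares) and liver (triangles) for 16 genes. The brain means of Sh3bp1 (-1.57), Hmx2 (-2.26), Thbs2 (1.55) and Olfr76 (1.64) stand apart from kidney and liver means that lie between -0.25 and 0.49, and Plvap has kidney on the other side of 0 at -0.98.

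The gene groups of brain cell types as wholes lay near the background. Of 570 measured genes of the neuronal lists 28 were higher and 46 lower (13% called, median -0.04), of 188 glial genes 16 were higher and 19 lower (18.6%, median -0.05), and of 220 vascular genes 9 were higher and 21 lower (13.6%, median -0.03), against 13.7% and a median of 0.00 over all features. The neuronal split turned to 58 higher and 49 lower when print-tip blocks were centred without loess. The number called fell to between 34 and 47 of 570 neuronal genes when any 1 of arrays 2 to 6 was left out, to between 17 and 21 of 188 glial genes likewise, and to 19 of 220 vascular genes without array 2. Of the 37 single lists, 31 changed their number of calls by over 1.5 times without at least 1 of the arrays, among them 17 of the 22 lists with under 5 calls. Calls over all 20218 features fell too, from 2772 to between 1334 and 2055 without any 1 of arrays 2 to 6. A drop in calls was therefore not particular to these lists. Of lists of other tissues, kidney and liver transcripts gave 1 higher and 2 lower of 23, pituitary and pineal genes 1 and 1 of 12, and skeletal muscle genes 0 and 2 of 17.

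**Figure D4:**
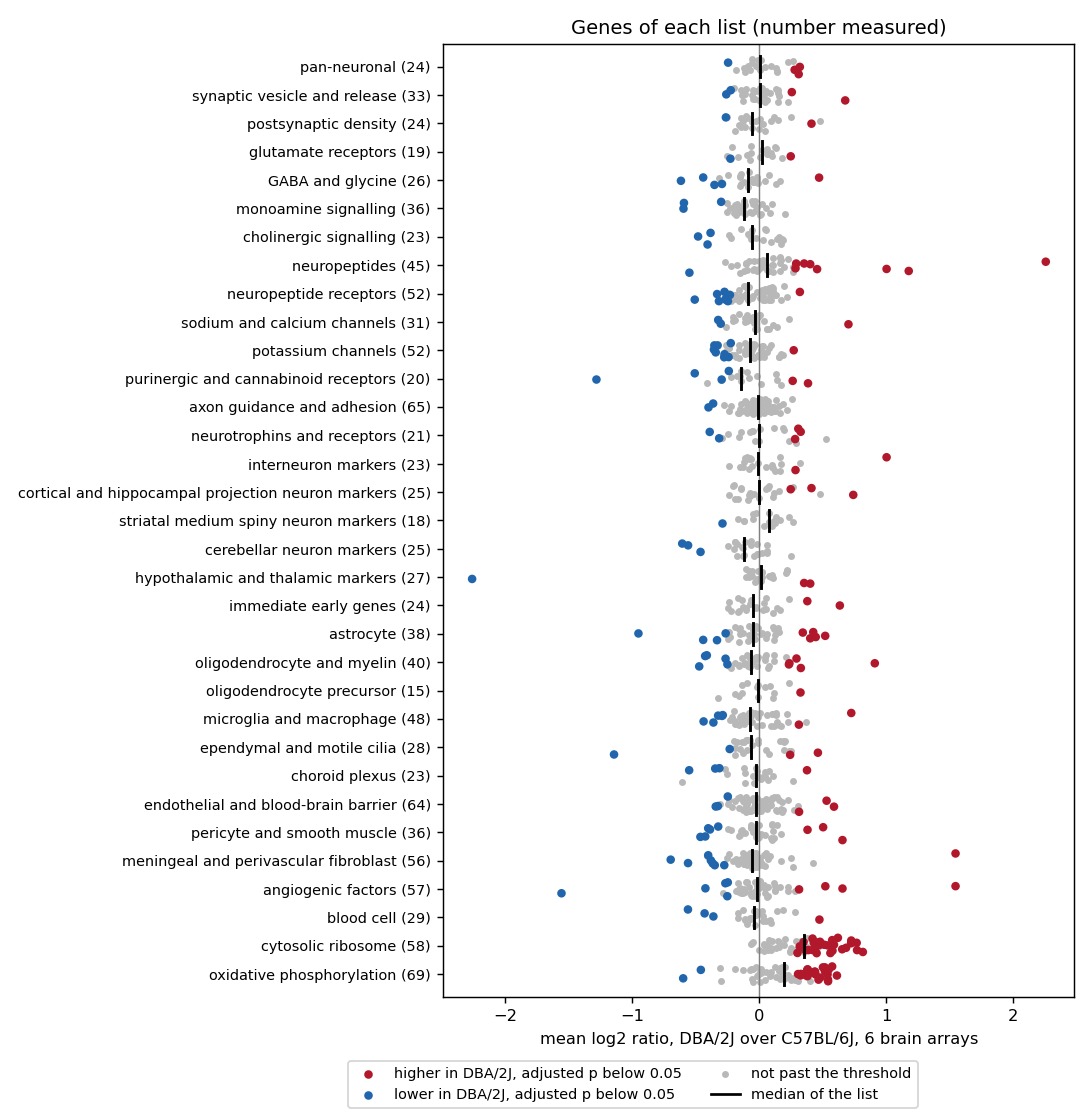
Mean log2 ratio of DBA/2J over C57BL/6J on the 6 brain arrays (horizontal axis) for every measured gene of each list (rows, number measured in parentheses). Red points passed the threshold as higher, blue points as lower, grey points did not pass, and the black bar is the list's median. Medians of the neuronal, glial and vascular lists lie between -0.14 and 0.08, and those of the ribosomal and oxidative phosphorylation lists at 0.35 and 0.20.

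The defining neuronal markers were not past the threshold. Snap25 and Syt1, which encode the release proteins SNAP-25 and synaptotagmin 1, averaged -0.09 ± 0.14 and -0.01 ± 0.15, and the cytoskeletal genes Tubb3, Map2 and Nefl averaged -0.11 ± 0.15, 0.02 ± 0.16 and 0.01 ± 0.14. Gap43 (0.28 ± 0.18), Stmn3 (0.31 ± 0.22), Sncb (0.32 ± 0.16) and Syp (-0.24 ± 0.14) of the same list did, but each lost the call without array 4, 5 or 6.

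Among synaptic genes, Sv2b, which encodes a glycoprotein of synaptic vesicles, stood out. Its arrays read 0.65, 0.67, 0.55, 0.95, 0.47 and 0.78, all clear of kidney (-0.21 ± 0.27) and liver (-0.12 ± 0.16). The mean was 0.68 ± 0.17 (1.6-fold, adjusted p = 0.000555) and the difference from the other tissues 0.84 (SE 0.10, adjusted p = 8.69e-06). Of 33 genes of vesicles and release, 2 were higher and 2 lower. Nrgn, the gene of the postsynaptic calmodulin-binding protein neurogranin, averaged 0.41 ± 0.21 (adjusted p = 0.00921), and of 24 postsynaptic density genes 1 was higher and 1 lower.

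Of 26 genes of GABA and glycine signalling, 1 was higher and 4 were lower (19.2%, median -0.09), and 2 or 3 were called without any 1 of arrays 2 to 6. The higher gene was Gabra2, which encodes an alpha subunit of the GABA-A receptor and is known for a low-expression allele in C57BL/6J. It read 0.35, 0.71, 0.38, 0.41, 0.56 and 0.42, all above 0, and its 2 spots averaged 0.36 ± 0.23 and 0.58 ± 0.16. Their mean intensity was low, at percentile 22.8 in brain, and alike in brain, kidney and liver (log2 7.74, 7.66 and 7.75). The gene's mean was 0.47 ± 0.13 (1.39-fold, adjusted p = 0.00244), the kidney mean was -0.31 ± 0.23, and the difference from kidney and liver was 0.62 (SE 0.09, adjusted p = 8.49e-05). The glycine transporter gene Slc6a9 averaged -0.61 ± 0.55, but -1.69 on array 1 against -0.68 to -0.28 on the others. Leaving out array 1 moved its mean by over 1.5 times, and leaving out array 3 ended its call. The GABA transporter gene Slc6a11 averaged -0.44 ± 0.29, a call lost without array 4 and with arrays centred on their medians.

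In cholinergic signalling, 0 of 23 genes were higher and 3 lower (13%, median -0.05). Slc5a7, the choline transporter gene of cholinergic terminals, read -0.53, -0.47, -0.42, -0.55, -0.44 and -0.47. The arrays were nearly identical, with a mean of -0.48 ± 0.05 (1.39-fold, adjusted p = 0.00132), while the difference from kidney and liver did not pass (-0.29, SE 0.10, adjusted p = 0.0539). Chrna7, a nicotinic receptor subunit gene, averaged -0.40 ± 0.10 (adjusted p = 0.00413) on a spot at percentile 4.86 of intensity, and its kidney (-0.45 ± 0.15) and liver (-0.28 ± 0.14) ratios were alike.

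Among monoamine genes, 0 of 36 were higher and 3 lower (8.33%, median -0.11), and 1 was lower without array 4 or 6. Htr1a, a serotonin receptor gene, was lower on every array, between -0.89 and -0.24, with a mean of -0.59 ± 0.27 (1.51-fold, adjusted p = 0.00281), and kidney (-0.48 ± 0.26) and liver (-0.64 ± 0.12) had like ratios. Of 20 purinergic and cannabinoid receptor genes 2 were higher and 4 lower (30%, median -0.14), and 1 and 2 without array 3, 4, 5 or 6. Among the 6 were P2rx5, described with the tissue differences, Cnr2, a cannabinoid receptor gene best known from immune cells (-0.51 ± 0.15), and P2ry4, a nucleotide receptor gene (0.39 ± 0.11). Cnr2, on a dim spot at percentile 14.9 of brain intensity, had like ratios in kidney (-0.60 ± 0.17) and liver (-0.47 ± 0.33). P2ry4 read 0.93 ± 0.12 in kidney and 0.13 ± 0.16 in liver. Neither Cnr2 nor P2ry4 passed as different from the mean of kidney and liver, and brain was not compared with kidney alone.

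Potassium channel genes gave 1 higher and 8 lower of 52 (17.3%, median -0.07), and between 3 and 5 lower without any 1 of arrays 2 to 6. Kcnd3, which encodes an A-type channel, averaged -0.34 ± 0.15 (adjusted p = 0.0126), with like ratios in kidney (-0.43 ± 0.19) and liver (-0.30 ± 0.22). Of 31 sodium and calcium channel genes 1 was higher and 2 lower. The higher one was Cacna1f, a calcium channel gene best known from the retina, at 0.70 ± 0.35 (1.63-fold, adjusted p = 0.00276), with a liver ratio of 0.50 ± 0.37. Its spot was dim, at percentile 12.6 of brain intensity. Of 65 genes of axon guidance and adhesion 0 were higher and 2 lower (3.08%).

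Markers of brain regions were called no more often than all features. Of 25 cerebellar genes 0 were higher and 3 lower (12%, median -0.12, and between -0.15 and -0.09 on each array). Cbln3, a cerebellin gene of granule cells, read -0.59, -0.55, -0.57, -0.56, -0.57 and -0.51, with almost no spread between arrays. Its mean was -0.56 ± 0.03 (1.47-fold, adjusted p = 0.000556), against 0.25 ± 0.18 in kidney and 0.12 ± 0.27 in liver (difference -0.74, SE 0.10, adjusted p = 1.76e-05). Car8, a carbonic anhydrase-related gene of Purkinje cells, read -0.64, -0.70, -0.52, -0.82, -0.53 and -0.42. All lay below the kidney mean of -0.24, with a mean of -0.60 ± 0.15 (1.52-fold, adjusted p = 0.000704) and a difference of -0.62 (SE 0.12, adjusted p = 0.000895). Lhx1, a LIM homeobox gene of Purkinje cells, averaged -0.46 ± 0.16 (adjusted p = 0.00357).

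Of 25 genes of cortical and hippocampal projection neurons 3 were higher and 0 lower, led by Rasgrf2, a Ras exchange factor gene (0.74 ± 0.34, on a spot at percentile 9.72 of intensity, with 0.99 ± 0.53 in kidney). Of 18 striatal markers 0 were higher and 1 lower, of 27 hypothalamic and thalamic markers 2 and 1, and of 23 interneuron markers 2 and 0, Vip among them. Of 21 genes of neurotrophic factors and their receptors 3 were higher and 2 lower, and 3, 1, 2 and 1 were called without array 3, 4, 5 and 6. Cntfr, the receptor gene of ciliary neurotrophic factor, was lower on every array, between -0.55 and -0.21 (-0.39 ± 0.13, adjusted p = 0.00646).

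In astrocytes, Glul, the gene of glutamine synthetase, had the largest ratio of the list. It read -0.93, -1.02, -1.27, -1.13, -1.07 and -0.28, with array 6 well apart from the other 5. The mean was -0.95 ± 0.35 (1.93-fold, adjusted p = 0.000556), against 0.37 ± 0.35 in kidney and -0.30 ± 0.16 in liver (difference -0.98, SE 0.13, adjusted p = 2.98e-05). Mt3, the gene of a brain metallothionein (0.52 ± 0.29), Fabp7, which encodes a brain fatty acid-binding protein (0.45 ± 0.25), and Apoe (0.40 ± 0.19, adjusted p = 0.00872) were higher, each with array 1 at about 0 and the other 5 above 0.25. In all, 5 of 38 astrocyte genes were higher and 4 lower (23.7%, median -0.04), and 3 and 2 without array 4 or 5. Gfap (0.11 ± 0.14), Aqp4 (-0.19 ± 0.14), the glutamate transporter genes Slc1a2 (-0.24 ± 0.19) and Slc1a3 (-0.15 ± 0.13), and Aldh1l1 (-0.09 ± 0.13) did not pass.

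Oligodendrocyte and myelin genes gave 5 higher and 5 lower of 40 (25%, median -0.06), and 4 were called without array 3 or 5 and 5 without array 2 or 4. The genes described here are not balanced: of the 5 higher ones only Gpr37, of the 5 lower ones Mal, Gjb1, Cryab and Mbp. Gpr37, which encodes an orphan receptor of oligodendrocytes, read 1.32, 1.14, 0.52, 1.10, 0.45 and 0.94. Arrays 3 and 5 were lower than the rest but above 0, the mean was 0.91 ± 0.35 (1.88-fold, adjusted p = 0.000665), and the difference from kidney (0.31 ± 0.31) and liver (-0.14 ± 0.32) was 0.83 (SE 0.14, adjusted p = 0.000429). Mal, a proteolipid gene of compact myelin, read -0.52, -0.44, -0.48, -0.58, -0.48 and -0.32, all below 0 within a narrow range. Its mean was -0.47 ± 0.09 (1.39-fold, adjusted p = 0.00178).

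Gjb1, a connexin gene of oligodendrocytes, averaged -0.41 ± 0.16 and lost the call with arrays centred on their medians. Cryab, a small heat-shock gene, averaged -0.42 ± 0.22 in brain, less far below 0 than in kidney (-1.17 ± 0.22) and liver (-0.97 ± 0.24), a difference of 0.65 (SE 0.11, adjusted p = 0.000385). Of the defining myelin genes, Mbp read -0.32 to -0.15 with a mean of -0.25 ± 0.07 (adjusted p = 0.0291), a call lost without any 1 of arrays 2 to 6 and without loess. Mog (-0.24 ± 0.22), Mag (-0.22 ± 0.11), Mobp (-0.19 ± 0.17) and Cnp (-0.02 ± 0.23) did not pass. The Cnp spot was dim, at percentile 10.7 of brain intensity, so its ratio near 0 may not stand for the gene. Of 15 precursor genes 1 was higher and 0 were lower.

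Microglia and macrophage genes gave 2 higher and 5 lower of 48 (14.6%, median -0.07), and 1 and 3 without array 3 or 4. The defining genes Cx3cr1 (-0.01 ± 0.09), P2ry12 (-0.08 ± 0.18), P2ry13 (0.14 ± 0.11), P2ry6 (-0.14 ± 0.13) and Aif1 (0.11 ± 0.32) did not pass. The Aif1 spot was dim, at percentile 12.2 of brain intensity. Slc2a5, a fructose transporter gene of microglia, was above 0 on every array, between 0.39 and 1.04, with a mean of 0.73 ± 0.23 (1.65-fold, adjusted p = 0.000665) and like ratios in kidney (0.58 ± 0.45) and liver (0.55 ± 0.22). Mrc1, the mannose receptor gene of perivascular macrophages, averaged -0.44 ± 0.24 (adjusted p = 0.00917), with -1.15 ± 0.22 in kidney.

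Of 28 genes of ependymal cells and motile cilia 2 were higher and 2 lower, and of 23 choroid plexus genes 1 and 3. Hydin, a gene of the ciliary central apparatus, read -0.50, -1.07, -1.14, -1.97, -1.72 and -0.44 in brain. The arrays spread widely below 0, with a mean of -1.14 ± 0.62 (2.21-fold, adjusted p = 0.00212), and kidney (-1.46 ± 0.82) and liver (-1.05 ± 0.76) spread likewise. Foxj1, the regulator of motile cilia, averaged -0.09 ± 0.23 and Ttr, the transthyretin gene of the choroid plexus, 0.26 ± 0.40, neither past the threshold. Col8a2, a collagen gene on the choroid plexus list, averaged -0.55 ± 0.35 (adjusted p = 0.00869). Its ratios in kidney (-0.68 ± 0.05) and liver (-0.33 ± 0.10) were also below 0, and the difference did not pass.

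Among 64 endothelial and barrier genes, 3 were higher and 3 lower (9.38%, median -0.02), and 2 and 1 without array 2. The defining genes Pecam1 (-0.08 ± 0.33), Cdh5 (-0.15 ± 0.29), Cldn5 (-0.11 ± 0.17), Ocln (-0.10 ± 0.17) and Tjp1 (0.00 ± 0.20) did not pass. The Ocln spot was among the dimmest, at percentile 2.45 of brain intensity. Plvap, which encodes the diaphragm protein of fenestrated capillaries, read 0.14, 0.54, 0.93, 0.90, 0.87 and 0.17. Arrays 1 and 6 lay near 0 and the other 4 above 0.5, with a mean of 0.59 ± 0.37 (1.51-fold, adjusted p = 0.00749). Kidney stood on the other side at -0.98 ± 0.30 and liver at -0.03 ± 0.20, and the difference was 1.10 (SE 0.13, adjusted p = 7.49e-06). Sox17, a transcription factor gene of arterial endothelium, averaged 0.53 ± 0.24 (1.45-fold, adjusted p = 0.00367), and Palmd averaged -0.32 ± 0.13 (adjusted p = 0.0138).

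Pericyte and smooth muscle genes gave 3 higher and 5 lower of 36 (22.2%, median -0.02). Myh11, the myosin heavy chain gene of smooth muscle, read -0.37, -0.50, -0.50, -0.49, -0.37 and -0.53. The arrays agreed closely, with a mean of -0.46 ± 0.07 (1.38-fold, adjusted p = 0.00178), but the call ended when arrays or print-tip blocks were centred without loess. Smtn, the smoothelin gene, went the other way at 0.50 ± 0.35, with array 1 highest at 1.13, and Mylk, the myosin light chain kinase gene, averaged 0.38 ± 0.19. Abcc9, a subunit of the ATP-sensitive potassium channel of pericytes, averaged -0.42 ± 0.21, and Tbx18, a transcription factor gene of mural cells, -0.40 ± 0.15. Abcc9 was lower still in kidney (-0.79 ± 0.10) and liver (-0.55 ± 0.28). Tbx18 read -0.40 ± 0.07 in kidney and -0.14 ± 0.21 in liver. Neither gene passed as different from the mean of those tissues. The defining pericyte genes Pdgfrb (0.05 ± 0.14), Rgs5 (0.10 ± 0.11), Kcnj8 (-0.07 ± 0.18) and Anpep (-0.15 ± 0.19) did not pass. The Kcnj8 spot was dim, at percentile 9.08 of brain intensity.

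Of 56 meningeal and perivascular fibroblast genes 1 was higher and 7 were lower (14.3%, median -0.05), and 1 and 4 without array 2, 4 or 6. The higher gene was Thbs2. Bmp6, a bone morphogenetic protein gene, was lower in brain (-0.70 ± 0.35, 1.62-fold, adjusted p = 0.00289) and in the other tissues (-1.34 ± 0.20 in kidney, -1.01 ± 0.22 in liver). Ptgds, the prostaglandin D synthase gene of the leptomeninges, averaged -0.56 ± 0.26 (adjusted p = 0.00361), a call lost with print-tip blocks centred without loess. The collagen genes Col1a1 (-0.12 ± 0.15), Col1a2 (-0.03 ± 0.10), Col3a1 (-0.08 ± 0.20) and Col5a1 (-0.24 ± 0.17) did not pass, nor did Col5a2, where array 3 read -2.90 and the other 5 lay between -0.01 and 0.22. Of 57 angiogenic factor genes 4 were higher and 5 lower, and 3 were called without array 2, 5 or 6 and 5 without array 4.

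Blood cell genes gave 1 higher and 3 lower of 29 (13.8%, median -0.04). Hba-a1, an alpha globin gene with a near-identical copy that its spot may also measure, read -1.08, -0.25, -0.74, -0.43, 0.00 and -0.86, a wide spread with array 5 at 0 (-0.56 ± 0.40), and lost the call without loess. S100a8, a neutrophil gene, averaged 0.48 ± 0.20 (adjusted p = 0.00416) and Cd3d, a T cell receptor complex gene, -0.43 ± 0.13 (adjusted p = 0.00398). S100a8 read 0.42 ± 0.18 in kidney and -0.16 ± 0.20 in liver. The Cd3d spot was dim, at percentile 15.6 of brain intensity, with like ratios in kidney (-0.50 ± 0.18) and liver (-0.34 ± 0.22).

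The lists that departed furthest from the background were those of protein synthesis and respiration, counted here as a reference. Of 58 cytosolic ribosomal protein genes 28 were higher and 0 lower (48.3% called, median 0.35). Rps29 read 0.23, 0.85, 0.62, 0.68, 1.01 and 1.24, and Fau read 0.12, 1.04, 0.48, 0.75, 1.23 and 1.29, array 1 being lowest for both. The list's median was -0.12 on array 1 and between 0.29 and 0.62 on the other 5. In 30 of the 58 genes the brain ratio passed as higher than the mean of kidney and liver, where the list's medians were -0.09 and 0.16. Without array 5 the higher genes numbered 17, and with arrays centred on their medians 43.

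Of 69 oxidative phosphorylation genes 25 were higher and 2 lower (39.1%, median 0.20), and 16, 11 and 12 were higher without array 2, 5 or 6. Cox5a, a cytochrome c oxidase subunit gene, averaged 0.61 ± 0.35 (1.53-fold, adjusted p = 0.00560). Ndufa13, a complex I subunit gene, averaged -0.60 ± 0.21 (adjusted p = 0.00159), a call lost without loess. This list too was below 0 on array 1 (median -0.06) and above 0 on the others. Without array 1, 38 ribosomal and 36 oxidative phosphorylation genes were higher. Array 1 also had the lowest ratio of Scg5, Mt3, Fabp7, Apoe, Npff and Pmch.

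**Figure D5:**
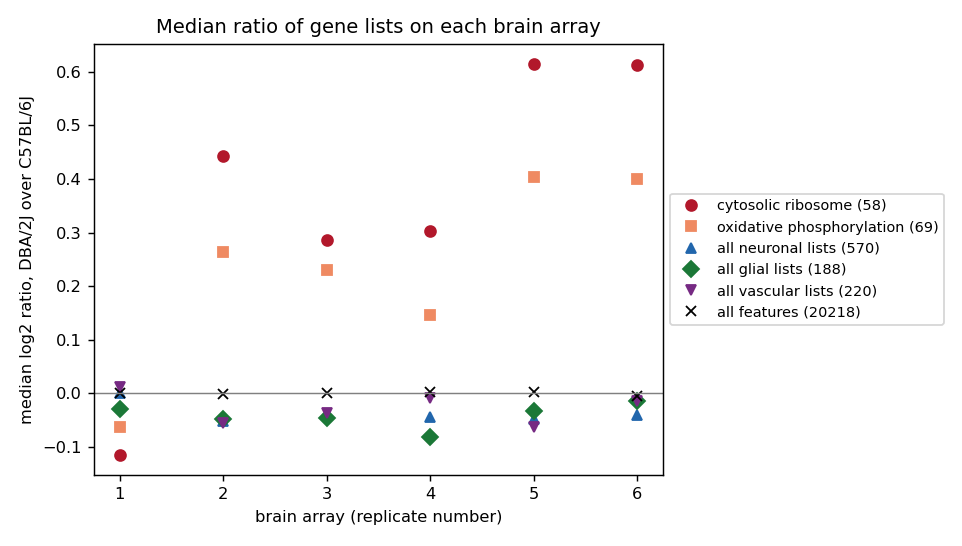
Median log2 ratio of DBA/2J over C57BL/6J (vertical axis) of gene lists on each brain array (horizontal axis); the number of measured genes is given in the legend. The ribosomal list lies at -0.12 on array 1 and between 0.29 and 0.62 on arrays 2 to 6, and the neuronal, glial and vascular lists stay between -0.08 and 0.01 on every array.

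For genes with more than 1 spot, each spot gave its own measurement. Of 1047 such genes 290 had at least 1 spot past the threshold, 16 had every spot past it, and 15 had spots past it in opposite directions. Among all 21765 spots, each tested on its own, 3010 passed. Given the correlation of 0.048 between spots, whether 16 is more than unrelated spots would give was not tested. Every spot was higher for 6 genes, Gabra2, Heg1, Tcf4, Rpl35a, Psg23 and Tmem239. Tmem239, which encodes a transmembrane protein, averaged 0.63 ± 0.12 (adjusted p = 0.000539), Heg1, a gene of endothelial junctions, 0.38 ± 0.12, and Tcf4, a basic helix-loop-helix factor gene, 0.35 ± 0.15. Every spot was lower for 5 genes, Edil3, Pmp22, Gys1, Ccl21a and Vmn2r-ps54. Pmp22, the gene of a peripheral myelin protein, had spots at -0.32 ± 0.06 and -0.26 ± 0.16, Edil3, which encodes an integrin ligand, at -0.37 ± 0.13 and -0.24 ± 0.11, and Gys1, the glycogen synthase gene, at -0.70 ± 0.50 and -0.47 ± 0.40. Pmp22 lost the call without array 4 or 5 and without loess, Ccl21a without any 1 of arrays 2 to 6, and Rpl35a without array 5 or 6. The spots of Rps12, a ribosomal protein gene, passed at 0.60 ± 0.29 and at -0.28 ± 0.15.

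Of 11 measured genes with well-known expression differences between the strains, 2 passed in brain, Gabra2 and Glo1, both higher in DBA/2J. The other 9 did not pass. The share called was 18.2%, against 13.7% of all features, so the list as a whole lay near the background. Glo1, the glyoxalase gene that is duplicated in DBA/2J, read 0.55, 0.49, 0.73, 0.80, 0.75 and 0.50 in brain. All arrays lay close together above 0 (0.64 ± 0.14, 1.55-fold, adjusted p = 0.000556), in the direction of the known allele.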

How the data were processed

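RNA of brain, kidney and liver of both strains was hybridised to 18 two-colour arrays, 6 per tissue. The labels name the program Spot for quantification and limma's print-tip lowess for normalisation, per the labels' descriptions. The deposited log2 values were nevertheless log2 ratios of 2 whole numbers in 100.0% of entries (tolerance 1e-12), and the brain array medians lay between -0.22 and -1.50, so they were treated as not normalised. Of 23040 spots, 1275 were 0 on every array and were left out, which left 21765. Each spot's intensity was estimated from the whole numbers behind its ratio, up to a common factor, so intensity is itself an estimate. Print-tip loess (span 0.3, 4 iterations, 48 blocks of 480 spots, taken from spot order) was then applied within each array, and the arrays' number limits the precision. Promoter windows are RefSeq's on GRCm38.p6, and the build behind the array's annotation is not given in the sources used here.

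Spots were named through the platform annotation, updated by Entrez identifier for 15964 spots. Of the spots, 16642 had exactly 1 symbol, 134 more than 1 and 4989 no symbol. Spots of a symbol were averaged, and the other spots stayed as features of their own. The brain mean was tested against 0 with lmFit and eBayes (limma 3.58.1, R 4.3.3) with Benjamini-Hochberg adjustment over all 20218 features, at 0.05. The brain ratio was compared with the mean of kidney and liver in a fit over all 18 arrays. All adjusted p-values are from these limma fits, which were tested on simulated data.

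Named genes were the 25 highest and 25 lowest called ratios with 1 sign on all arrays, up to 8 called members and the first 5 measured members of each list, the genes called on every spot, the strain alleles and the 12 largest tissue differences each way. The text describes a selection of them. The members and lists were chosen with earlier results of these data known. Alternatives covered the normalisation, the intensity, scaling between arrays, a filter on dim features, spots on their own, array weights, the samples in the fit, robust moderation, the replicate block and leaving out each array.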

Additional observations from a re-analysis of the deposited data

Results flagged for a closer look

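For 12 of the 136 genes described or drawn on, 1 brain array stood far from the other 5, a gap that chance alone gives in about 1 of 20 groups and that 6.49% of all features showed. Array 1 stood apart for Apoc1 (-4.12), Scg5 (-0.093), Slc6a9 (-1.69), Fabp7 (-0.026) and Mylk (0.011). Array 2 stood apart for Vipr1 (-0.48) and Aqp4 (-0.48), array 3 for Hectd3 (-1.08) and Col5a2 (-2.90), and array 6 for Chgb (1.17), Glul (-0.28) and Cnp (0.42).

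The brain ratio differed from the mean of kidney and liver in the fit over all 18 arrays for 57 of the genes past the threshold in brain. Among the largest ratios the difference was -2.13 for Hmx2, -1.85 for Sh3bp1, -1.35 for P2rx5, -1.23 for Hectd3, -1.07 for Mfsd10 and -0.99 for Apoc1. It was 1.70 for Olfr76, 1.56 for Thbs2, 1.43 for Dpp6, 1.32 for E130101E03Rik, 1.25 for Pam, 1.24 for Neurl3, 0.95 for Cdx2, 0.92 for Rny3, 0.90 for Gnb1 and 0.89 for Chd9.

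In neuronal genes the difference was 1.09 for Vip, 0.84 for Sv2b, 0.70 for Npy, 0.62 for Gabra2, 0.60 for Scg5, 0.47 for Gap43, 0.46 for Nrgn, 0.35 for Pmch and 0.33 for Sncb. It was below 0 for Nts (-0.80), Cbln3 (-0.74), Car8 (-0.62), Slc6a11 (-0.52), Cntfr (-0.46) and Lhx1 (-0.30).

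In glial genes it was 0.83 for Gpr37, 0.65 for Cryab, 0.42 for Mrc1 and 0.35 for Fabp7, and -0.98 for Glul, -0.59 for Gjb1, -0.35 for Mal and -0.34 for Mbp. In vascular and blood genes it was 1.10 for Plvap, 0.56 for Sox17, 0.48 for Smtn, 0.48 for Bmp6 and 0.35 for S100a8, and -0.46 for Myh11, -0.44 for Ptgds and -0.39 for Palmd. In the remaining genes it was 0.70 for Rps29, 0.58 for Tmem239, 0.57 for Fau, 0.44 for Cox5a, 0.44 for Rpl35a, 0.40 for Vmn2r-ps54 and 0.26 for Tcf4, and -0.76 for Gys1, -0.69 for Ndufa13 and -0.36 for Pmp22. Of these 57 differences, 33 kept their call under every alternative that tested them, and dim genes were not tested with dim features left out. The other 24, those of Apoc1, Rny3, Scg5, Nts, Sncb, Cntfr, Lhx1, Fabp7, Mbp, Mal, Mrc1, Sox17, Palmd, Smtn, Bmp6, Ptgds, S100a8, Fau, Rps29, Cox5a, Tcf4, Rpl35a, Pmp22 and Vmn2r-ps54, lost it under at least 1. Scg5, Lhx1 and Tcf4 lost it under 7 each.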

How the results depend on the processing

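Of the 95 genes named as past the threshold in brain, 70 kept the call under every alternative that tested them. So did 840 of the 2772 features and 288 of the 344 at 1.5-fold. Features below the median intensity were not tested with dim features left out, so that alternative could not end their calls. The fit of spots on their own did not enter these counts. The 2772 calls became 1499 with features below the median intensity left out (10109 tested), and between 1334 (without array 4, 1308 of them among the 2772) and 3303 (without array 1) when 1 array was left out. All 18 arrays in 1 fit gave 4132 calls, 2663 of them among the 2772, and array weights 3543. With arrays centred on their medians 3545 features passed, of which 1831 were among the 2772. The 344 calls at 1.5-fold became 634 with print-tip blocks centred without loess, 823 with arrays centred on their medians and 204 without the dim features, and between 277 and 452 when 1 array was left out. The 2948 differences from kidney and liver became 1885 with 1 loess curve per array, 1048 with intensity not restored and 1646 with arrays centred on their medians, and between 2096 and 3167 when 1 brain array was left out. The sign turned for Syt1, from -0.01 to 0.46 with centred blocks and 0.29 with centred arrays, and for the Ptgds difference, from -0.44 to 0.072 and 0.16. Beyond the alternatives' own construction, the cause was not tested. Replicate numbers did not pair the tissues: deviations of same-numbered arrays correlated between -0.23 and 0.11, and with the replicate block 2678 differences passed, 1424 higher and 1254 lower. Dim spots, pooled RNA, the absent dye swap and estimated intensities limit every value.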
